A study of Danio rerio with 10 samples.

Results

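The Bmp and Tgf-beta pathway genes described here are the 78 genes of 32520 in the count table whose symbols name Bmp, Gdf, Tgf-beta or inhibin ligands, their receptors, Smads, noggins, gremlins, follistatins, chordin or Id factors, and which had at least 10 reads in all 4 libraries together. The symbols matched 80 identifiers. Nearest to the minimum of 10 were *bmp10l*, with 10 reads in all, inside it and *gdf2*, with 7, outside it, and the second identifier of *grem1a*, with 2 reads, was also left out. RNA-seq was carried out on EGFP-positive cells sorted from pectoral fins of *Tg(Mmu:Prx1-EGFP)* embryos at 48 hpf, in 2 WT libraries and 2 libraries homozygous for the *prdm1a* allele m805, a premature stop, here *prdm1a-/-*. Both genotypes carried the transgene, in which a mouse Prx1 enhancer drives EGFP. Where a pair of values is given for a genotype, replicate 1 comes first. The enhancer also labels the pharyngeal arches and part of the head, which were dissected away before sorting, and *prdm1a-/-* embryos were recognised by their pigment. The paper describes an intercross of heterozygous fish, and the sources used here do not say how WT embryos were told from heterozygotes. The paper allows that traces of arch and dorsal head may have stayed in the samples. Each library came from a pool of embryos, and differences among replicates are therefore differences among pools. In bulk RNA a lower value can mean fewer cells of a type or less RNA per cell, and these cannot be told apart.

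Bmp and Tgf-beta ligands are secreted dimers that bring together type I and type II receptor kinases. Bmp-type receptors phosphorylate Smad1, Smad5 and Smad9, whereas Tgf-beta and activin receptors phosphorylate Smad2 and Smad3, and both sets enter the nucleus with Smad4. Among the best-known Bmp targets are the *id* genes, which encode inhibitors of basic helix-loop-helix factors, and the inhibitory Smads, which feed back on the receptors, while noggin, gremlin, chordin and follistatin bind ligands outside the cell. In the limb bud the pathway acts in dorsoventral patterning, in the apical ridge and in cartilage condensation.

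None of the pathway genes reached an adjusted p under 0.05 between the genotypes, and the values leaned towards lower expression in *prdm1a-/-* libraries. A total of 73 of the 78 genes had enough reads to be tested, and the quasi-likelihood test of edgeR, blocked on replicate number, called 0 of them, where 1.01% of the 20007 genes tested were called. At an unadjusted p under 0.05 there were 11 lower genes (15.1% of the 73, against 6.05% of all genes tested) and 3 higher genes (4.11%, against 6.4%). In both pairs of libraries with the same replicate number, 33 were lower in the *prdm1a-/-* library (45.2%, against 29.7% of all genes) and 10 were higher (13.7%, against 29.7%), and 30 were split. The genotypes did not overlap for 20 genes, with *prdm1a-/-* the lower for 14 (19.2%, against 13.5%) and the higher for 6 (8.22%, against 12.7%). Over the pathway genes the log2 fold change (*prdm1a-/-* against WT) had a median of -0.17, and over all genes tested it had a median of 0.01. Of the 73, 50 were fitted below 0 and 23 above, against 9856 and 10151 of the 20007 genes tested. The lean was stronger in the second pair, where the median of the log2 ratios was -0.21, than in the first, where it was -0.04. Genotype as the only term called 0 of all 20007 genes tested, and so 0 of the 73. In that fit 2 of the 73 had an unadjusted p under 0.05 (*nog3* and *gdf11*), where 1.88% of all genes had such a p. Its median over the pathway genes was -0.17. Without WT replicate 2, and so without the block, the median was -0.0124. DESeq2 with the block called 1 pathway gene, *tgfbr2a*, and 243 of all genes tested. Limma-voom with the block called 2 pathway genes, *id1* and *nog3*, and 434 of all genes tested.

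**Figure D1:**
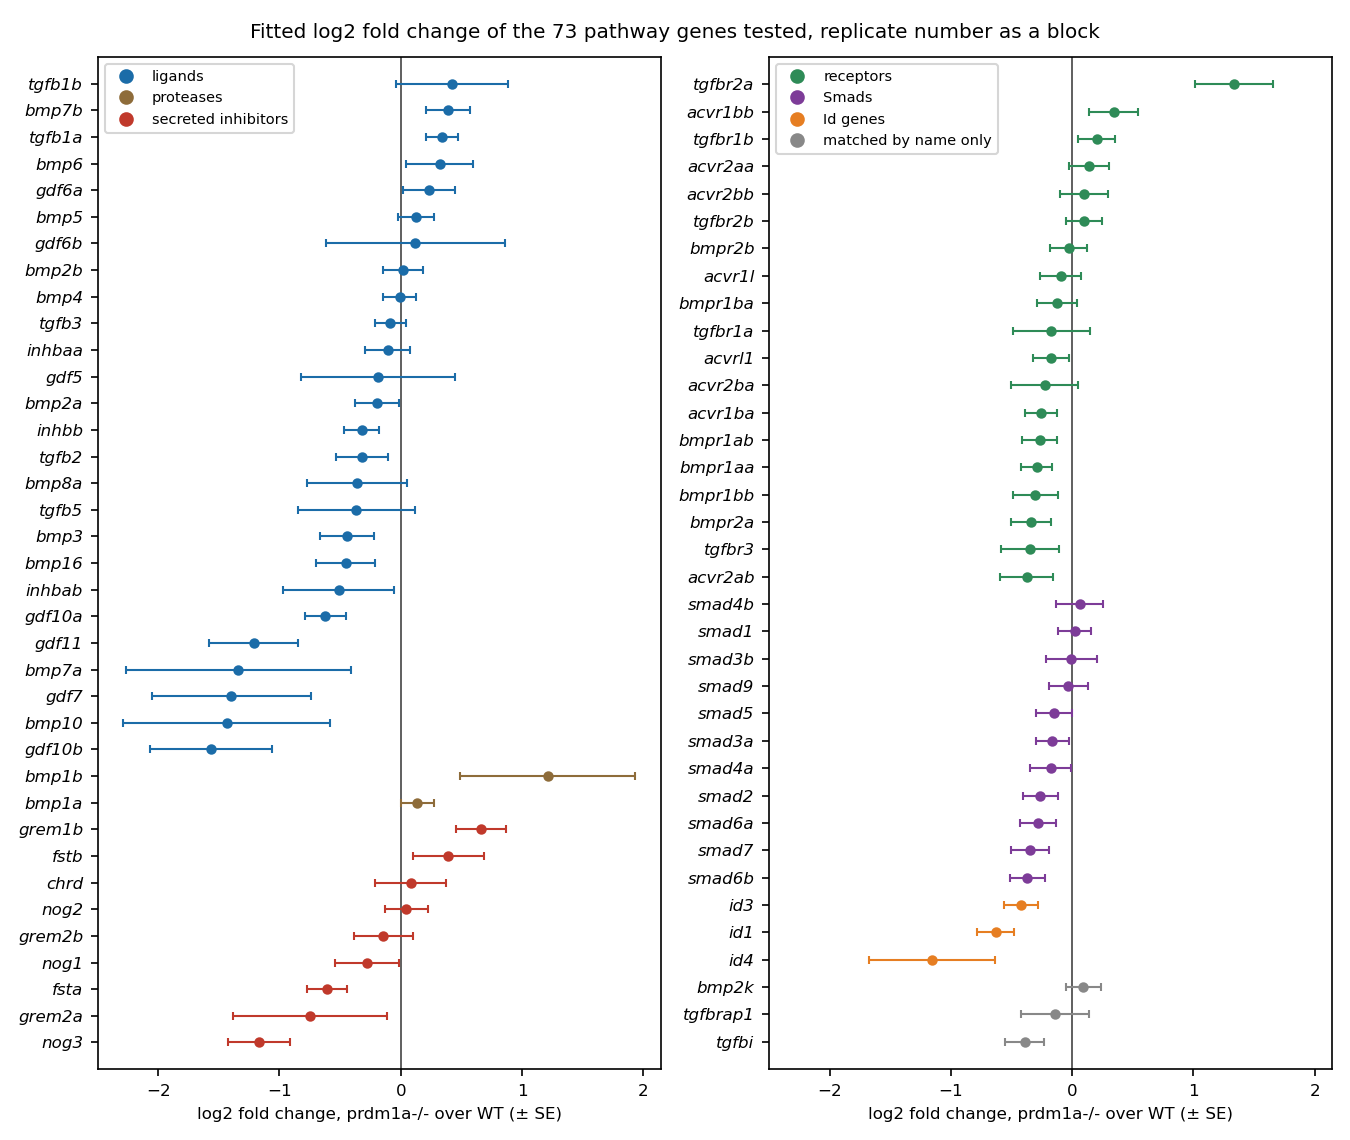
Log2 fold change (x axis, *prdm1a-/-* over WT) of each of the 73 pathway genes tested, from edgeR with the replicate number as a block; points are estimates, bars are ± 1 SE and colours give the role. Of the 73 genes 50 lie below 0, the 3 *id* genes and 9 of the 11 Smads among them, and *tgfbr2a* lies farthest above it, at 1.34.

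Libraries totalled 20303621 to 26798799 counts, so that 3 reads, the most that a count of 0 could hide by counting error, correspond to 0.115 to 0.147 CPM (counts per 1000000, on library totals scaled by TMM). The pathway genes took 0.346% to 0.447% of the counts, with the lowest share in *prdm1a-/-* replicate 2. The targeted gene *prdm1a*, whose mutant transcript is still counted, had 50.01 and 232 CPM in WT and 122.6 and 302 CPM in *prdm1a-/-*, and these values do not check the genotype. All 10 fin mesenchyme markers listed, *tbx5a*, *prrx1a* and *fgf10a* among them, were detected, with summed levels of 790 and 643 CPM in WT and 770 and 467 CPM in *prdm1a-/-* libraries. Markers of other cells were present as well. The 6 epidermal markers summed to between 8536 and 12324 CPM, and the 6 endothelial ones to between 249 and 291 CPM. Sums over 11 cartilage markers were 39552 and 30492 CPM in the first WT and *prdm1a-/-* replicates but 1667 and 837 CPM in the second. The most abundant, *col2a1a*, had 21511 and 16294 CPM in the first and 672 and 280 CPM in the second. Over the 11 the median log2 ratio of replicate 2 over replicate 1 was -4.69. Not all of them followed, and *sox9a* had 134 and 134 CPM in the first and 274 and 197 CPM in the second. Sums over 10 muscle markers were 12930 and 11701 CPM in the first and 1785 and 2769 CPM in the second. The 4 notochord markers differed likewise, with 222 and 180 CPM in the first WT and *prdm1a-/-* replicates and 27.6 and 29.8 CPM in the second. Among them *shha* is, per the paper, also expressed in the posterior fin bud. It gave 15.8 and 19.4 CPM of the sums in the second replicates, so these sums do not measure notochord alone. The 6 neural crest and pigment markers separated the genotypes, with 94.4 and 66.9 CPM in WT and 39.0 and 28.7 CPM in *prdm1a-/-* libraries, and 3 of the 6 passed the test as lower. Because *prdm1a-/-* embryos were picked by their pigment, the pigment markers among them are no independent result. Cartilage markers also differed by genotype within replicate numbers, with all 11 fitted below 0 at a median log2 fold change of -0.71. Of the 11, 8 were lower at an unadjusted p under 0.05 (72.7%, against 6.05% of all genes tested). With the block edgeR called 0, DESeq2 3 and limma-voom 4 of them. Muscle markers leaned the other way, with 8 of the 10 fitted above 0 at a median of 0.34. At an unadjusted p under 0.05, 4 of the 10 were higher (40%, against 6.4%) and 1 was lower (10%, against 6.05%). Among the 6 epidermal markers 4 were fitted above 0, at a median of 0.26, and 2 were higher at such a p (33.3%, against 6.4%). EdgeR called 0 in either list. Of the 10 fin mesenchyme markers edgeR called only *hand2*, which fell by 1.12 on the log2 scale (SE 0.148, adjusted p = 0.00525). Of the 10, 7 were fitted below 0 and 3 above, *fgf10a* among the latter, at 0.27 (SE 0.140) and higher in both pairs. The 8 neuron markers summed to 151 and 180 CPM in WT and 152 and 94.5 CPM in *prdm1a-/-* libraries. Of these 8, 4 were fitted below 0 and 4 above, and edgeR called only *elavl3*, which fell by 0.81 (SE 0.146, adjusted p = 0.0306). The part of all these markers in the lower values of the pathway genes was not tested.

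All 3 *id* genes in the set, *id1*, *id3* and *id4*, were lower in *prdm1a-/-* in both pairs, as were 29.7% of all genes tested. The symbols used here matched no *id2* gene. *id1* had 543 and 419 CPM in WT and 410 and 232 CPM in *prdm1a-/-*. Every *prdm1a-/-* library lay below both WT libraries, although *prdm1a-/-* replicate 1 and WT replicate 2 were close. Its log2 fold change was -0.63 (SE 0.152, adjusted p = 0.0959), or 1.55-fold lower, and the adjusted p over the fits with the block ran from 0.0133, when low-count genes were kept, to 0.160. With genotype alone it was 0.9999, and with 1 library left out as well the log2 fold change was -0.23 without *prdm1a-/-* replicate 2, -0.38 without WT replicate 1 and -1.05 without *prdm1a-/-* replicate 1. *id3* had 97.4 and 163 CPM in WT and 79.8 and 111 CPM in *prdm1a-/-* libraries. The groups overlapped, since the second replicates were the higher in both genotypes, yet each *prdm1a-/-* library was below the WT library of its number, by log2 ratios of -0.29 and -0.55. The fit gave -0.42 on the log2 scale (SE 0.137, adjusted p = 0.234), and genotype alone gave -0.0268 without WT replicate 2 and -0.77 without WT replicate 1. *id4* was read sparsely, with 56 and 81 counts in WT and 27 and 35 counts in *prdm1a-/-* libraries, or 2.44 and 3.60 CPM against 1.32 and 1.35 CPM. The groups did not overlap, with -1.16 on the log2 scale (SE 0.518, adjusted p = 0.401). *id4* shares a chromosome with *prdm1a*, at a distance of 29 tested genes in GRCz12tu, and for it a difference of genotype and one of linked haplotype cannot be told apart. Of the 101 tested identifiers for the 50 genes on either side of *prdm1a*, 2 were called (1.98%, against 1.01% of all genes tested) and 20 had an unadjusted p under 0.05 (19.8%, against 12.4%).

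All 3 inhibitory Smads were fitted below 0, as were 50 of the 73 pathway genes and 9856 of all 20007 genes tested. *smad6a* had 63.6 and 38.7 CPM in WT and 56.2 and 29.7 CPM in *prdm1a-/-*. Its paralog *smad6b* had 67.2 and 48.7 CPM in WT against 54.6 and 35.9 CPM. *smad7*, which acts on Bmp and Tgf-beta receptors alike, had 33.3 and 52.1 CPM in WT against 28.4 and 37.8 CPM. Both *smad6* genes were lower in the second replicates than in the first and *smad7* was higher there, so the genotypes overlapped for all of them. For all 3 *prdm1a-/-* was below WT in both pairs, as for 29.7% of all genes tested. Log2 fold changes were -0.28 (SE 0.148) for *smad6a*, -0.37 (SE 0.143) for *smad6b* and -0.35 (SE 0.157) for *smad7*, with adjusted p-values of 0.494, 0.327 and 0.407. With genotype alone and 1 library left out, *smad6b* lay between -0.69 and -0.0874, the latter without *prdm1a-/-* replicate 2, *smad7* between -0.65 and -0.00722, the latter without WT replicate 2, and *smad6a* turned to 0.15 without WT replicate 1 and 0.13 without *prdm1a-/-* replicate 2.

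**Figure D2:**
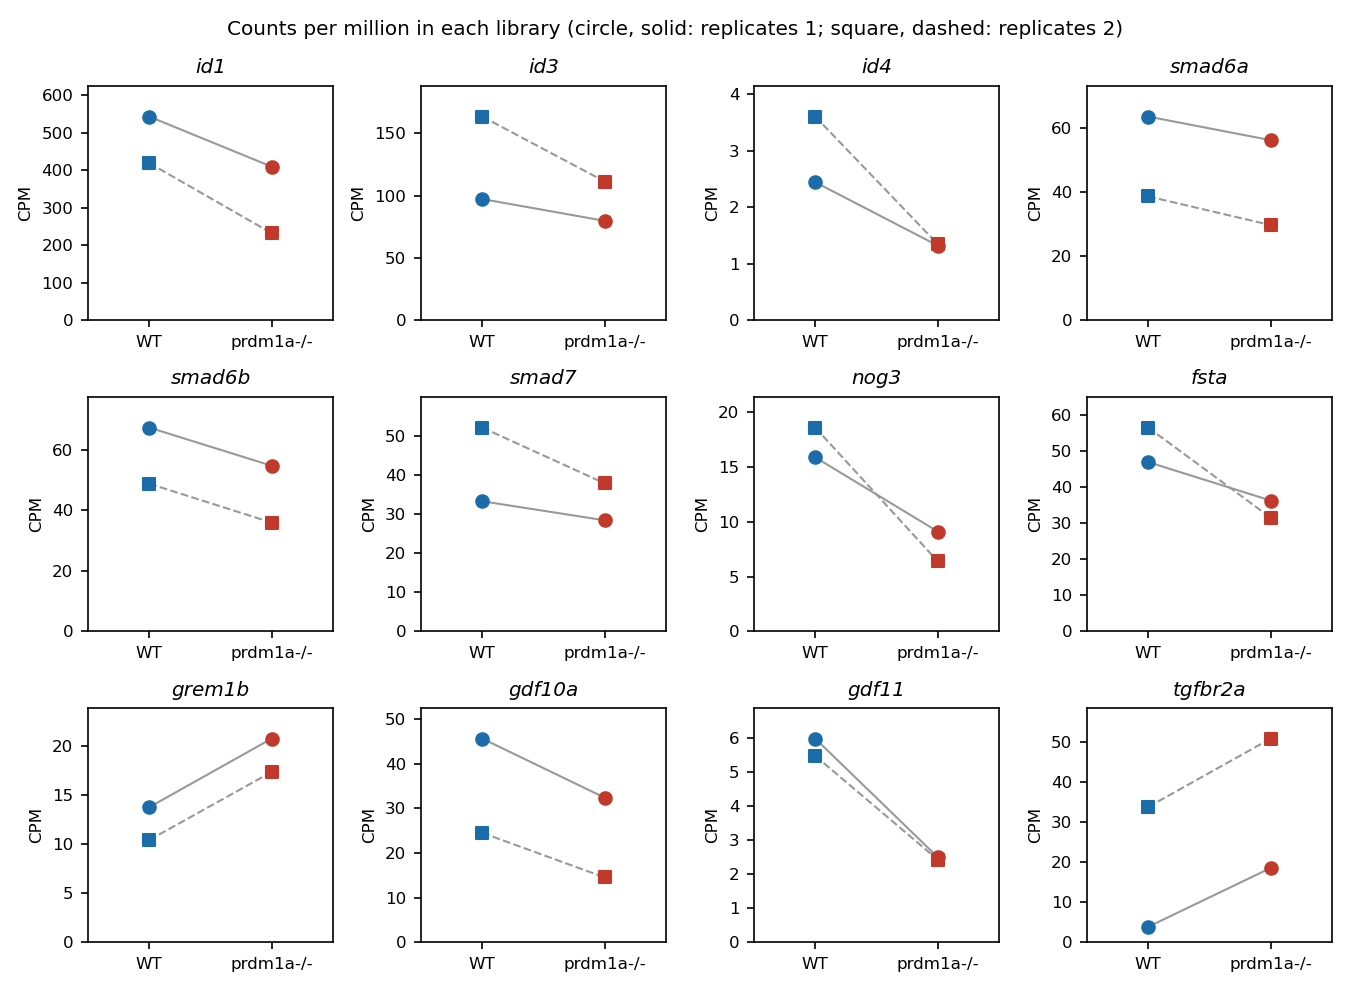
CPM (y axis, linear, from 0) in each of the 4 libraries for 12 pathway genes; circles and solid lines join WT to *prdm1a-/-* for replicates 1, squares and dashed lines for replicates 2. Lines slope down in both pairs for the *id* genes, *smad6a*, *smad6b*, *smad7*, *nog3*, *fsta*, *gdf10a* and *gdf11*, and up in both pairs for *grem1b* and *tgfbr2a*, whose values in WT were 3.88 and 33.7 CPM.

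Of the Smads that carry the signal, those of the Bmp branch had fitted log2 fold changes of 0.02 (SE 0.137) for *smad1*, -0.15 (SE 0.149) for *smad5* and -0.03 (SE 0.162) for *smad9*, and in none of the 3 did the pairs share a direction. *smad1* varied least, from 65.5 and 67.2 CPM in WT to 67.9 and 66.7 CPM in *prdm1a-/-* libraries. *smad5* had 82.2 and 92.2 CPM in WT and 85.8 and 72.2 CPM in *prdm1a-/-* libraries. In the Tgf-beta and activin branch, *smad2* had 52.4 and 59.0 CPM in WT and 46.6 and 46.2 CPM in *prdm1a-/-* libraries. These groups did not overlap (log2 fold change -0.26, SE 0.145, adjusted p = 0.510). *smad3a* had 67.4 and 145 CPM in WT against 66.0 and 118 CPM, and differed more between replicate numbers than between genotypes. It was lower in both pairs, by log2 ratios of -0.03 and -0.29 (log2 fold change -0.16, SE 0.138, adjusted p = 0.693). The common partner *smad4a* was at -0.18 (SE 0.169) and *smad4b* at 0.06 (SE 0.193).

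Of the secreted inhibitors, *nog3* and *fsta* were lower and *grem1b* was higher in *prdm1a-/-* libraries, and none of them passed the test. *nog3*, a noggin that binds Bmp ligands, had 15.9 and 18.6 CPM in WT and 9.11 and 6.39 CPM in *prdm1a-/-*. The groups were well apart, and the gene had the smallest p of all pathway genes, at -1.17 on the log2 scale (SE 0.253, adjusted p = 0.0695), or 2.25-fold lower. Its adjusted p passed 0.05 in limma-voom (0.0288), when 10 reads were asked of every library (0.0486) and when low-count genes were kept (0.00595), all with the block, and was 0.118 at most in the fits with the block. The other noggins did not share this pattern. *nog1* was at -0.28 (SE 0.265) with pairs of opposite direction, and *nog2* at 0.05 (SE 0.178).

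*fsta*, a follistatin that binds activins and some Bmps, had 47.0 and 56.6 CPM in WT and 36.3 and 31.6 CPM in *prdm1a-/-* libraries, without overlap (log2 fold change -0.61, SE 0.166, adjusted p = 0.144). Its paralog *fstb* behaved otherwise, with 21.0 and 143 CPM in WT and 48.8 and 110 CPM in *prdm1a-/-* libraries. Here the *prdm1a-/-* library was higher in replicates 1 and lower in replicates 2, and the fitted 0.39 (SE 0.293, adjusted p = 0.651) averages log2 ratios of 1.21 and -0.38. *grem1b*, a zebrafish gremlin, whose mouse counterpart in limb buds restrains Bmp and so keeps the ridge signalling, had 13.7 and 10.4 CPM in WT and 20.7 and 17.3 CPM in *prdm1a-/-* libraries. It was the only one of the 9 inhibitors tested that was higher in both pairs (log2 fold change 0.66, SE 0.204, adjusted p = 0.202). *grem2a* was read 21 to 45 times per library and stood at -0.75 (SE 0.634), *grem2b* at -0.14 (SE 0.245) and *chrd* at 0.08 (SE 0.293). *grem1a*, with 36 and 3 counts in WT and 0 and 6 counts in *prdm1a-/-* libraries, was too sparse to be tested.

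Bmp receptors were all fitted below 0, by small amounts, as were 50 of the 73 pathway genes. The 6 genes *bmpr1aa*, *bmpr1ab*, *bmpr1ba*, *bmpr1bb*, *bmpr2a* and *bmpr2b* lay between -0.34 and -0.03, with a median of -0.28, and for 3 of them the groups did not overlap, with *prdm1a-/-* the lower, as for 13.5% of all genes tested. *bmpr1aa*, a type I receptor, had 118 and 128 CPM in WT and 98.6 and 102 CPM in *prdm1a-/-*. Both pairs gave much the same ratio, -0.26 and -0.32, and the fitted value was -0.29 (SE 0.130, adjusted p = 0.397). *bmpr1ab* had 72.9 and 69.9 CPM in WT against 55.6 and 63.3 CPM (log2 fold change -0.27, SE 0.143, adjusted p = 0.495). The type II receptor *bmpr2a* had 30.1 and 41.2 CPM in WT against 26.1 and 29.6 CPM (log2 fold change -0.34, SE 0.166, adjusted p = 0.445). *acvrl1* and *acvr1l*, type I receptors of the same branch, were at -0.17 (SE 0.151) and -0.09 (SE 0.168).

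Tgf-beta and activin receptors together had no common direction. Of the 5 Tgf-beta receptors, 3 were higher in both pairs (60%, against 29.7% of all genes tested) and 0 were lower. For 2 of the 5 the groups did not overlap, with *prdm1a-/-* the higher (40%, against 12.7%). Of the 6 activin receptors, 3 were lower and 1 was higher in both pairs (50% and 16.7%, against 29.7% each). For 1 of the 6 the groups did not overlap, with *prdm1a-/-* the higher (16.7%, against 12.7%). *tgfbr2a*, a type II receptor that binds Tgf-beta, had 3.88 and 33.7 CPM in WT and 18.6 and 50.8 CPM in *prdm1a-/-*, from 89, 759, 379 and 1319 counts. The second replicates were above the first in both genotypes, and WT replicate 1 stood far below the other 3 libraries. Within replicate numbers the log2 ratios of *prdm1a-/-* over WT were 2.24 and 0.59. The fitted value was 1.34 on the log2 scale (SE 0.322, adjusted p = 0.0954), DESeq2 with the block gave an adjusted p of 0.0139, and over the fits with the block it ran from 0.00156, with low-count genes kept, to 0.178. With genotype alone and without *prdm1a-/-* replicate 2, the log2 fold change was -0.0202, without WT replicate 1 it was 0.0430, and without WT replicate 2 it was 3.16. Its paralog *tgfbr2b* had 44.8 and 43.3 CPM in WT and 47.7 and 46.5 CPM in *prdm1a-/-*, which came to 0.10 on the log2 scale (SE 0.145). Of the type I receptors, *tgfbr1b* was at 0.20 (SE 0.152) and *tgfbr1a* at -0.17 (SE 0.321), and the co-receptor *tgfbr3* at -0.35 (SE 0.239). The 6 activin receptors *acvr1ba*, *acvr1bb*, *acvr2aa*, *acvr2ab*, *acvr2ba* and *acvr2bb* ranged from -0.37 to 0.34. *acvr1ba* alone is given by library, with 103 and 221 CPM in WT and 92.0 and 173 CPM in *prdm1a-/-* libraries (log2 fold change -0.26, SE 0.134, adjusted p = 0.484).

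**Figure D3:**
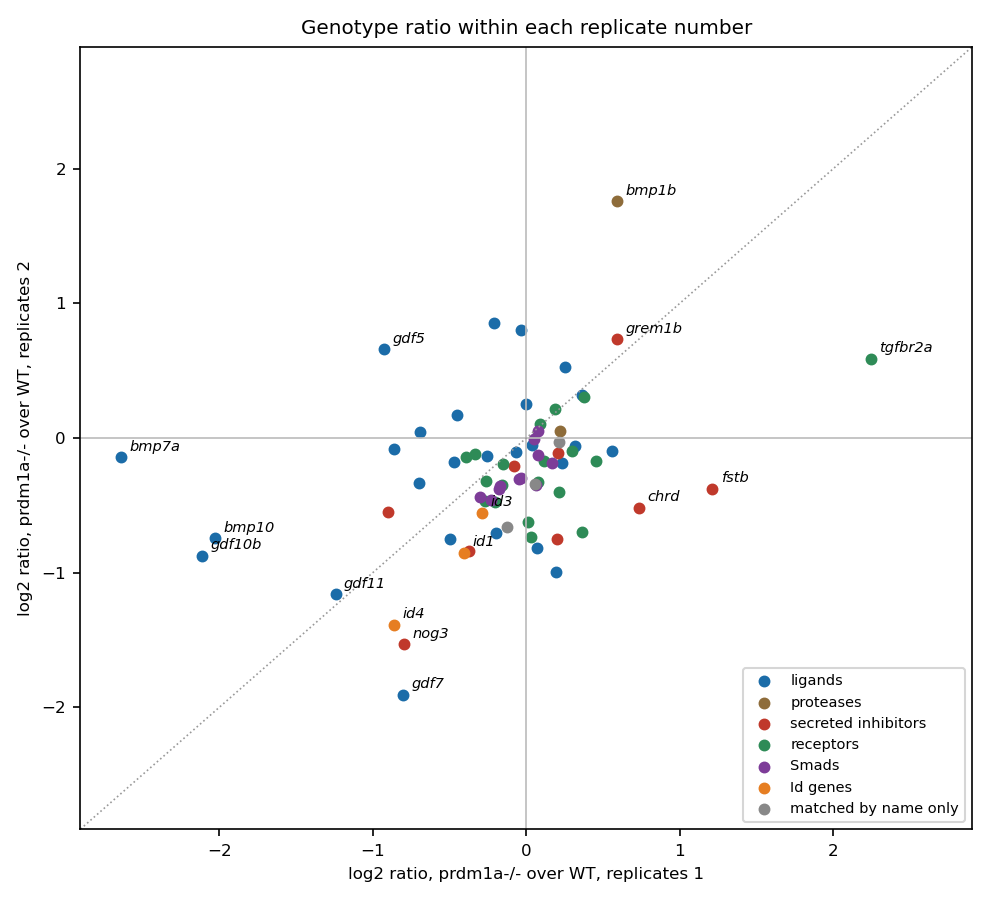
Log2 ratio of *prdm1a-/-* over WT in replicates 1 (x axis) against replicates 2 (y axis) for the 73 pathway genes tested, coloured by role; the dotted line marks equal ratios. The lower left holds 33 genes and the upper right 10, and *fstb* (1.21 and -0.38) lies far off the line.

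Of the Bmp ligands known from fin and limb buds, *bmp4* and *bmp2b* were fitted closest to 0. *bmp4* had 65.4 and 84.1 CPM in WT and 67.1 and 81.0 CPM in *prdm1a-/-* (log2 fold change -0.01, SE 0.136). *bmp2b* had 25.2 and 63.7 CPM in WT against 29.7 and 55.9 CPM (0.02, SE 0.162). *bmp5* stood at 0.13 (SE 0.148), *bmp2a* at -0.20 (SE 0.182) and *bmp7b* at 0.39 (SE 0.178). Among these genes the pairs shared a direction only for *bmp2a*, lower in both, and *bmp7b*, higher in both. Of the 11 Bmp ligands tested, 0 had an unadjusted p under 0.05, against 12.4% of all genes tested. The largest estimates were those of 2 genes with among the fewest reads, *bmp10* and *bmp7a*, at -1.44 (SE 0.851) and -1.34 (SE 0.928). *bmp7a* had 34 and 23 counts in WT and 4 and 24 counts in *prdm1a-/-* libraries, so that only *prdm1a-/-* replicate 1 stood apart. *bmp10* had 31 and 24 counts in WT and 6 and 16 counts in *prdm1a-/-* libraries. With *prdm1a-/-* replicate 1 below 10 counts, both genes entered the test through the other libraries, WT among them. Both are among the genes counted above as lower in both pairs and without overlap.

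Of the 7 Gdf ligands tested, 3 were lower at an unadjusted p under 0.05 (42.9%, against 6.05% of all genes tested), and 0 were called. They were 3 of the 4 ligands with such a p. *gdf11*, known in mouse for patterning along the body axis, had 137 and 123 counts in WT and 51 and 63 counts in *prdm1a-/-* libraries, which was 5.97 and 5.47 CPM against 2.50 and 2.43 CPM. Libraries of one genotype were nearly equal and the groups far apart, at -1.21 on the log2 scale (SE 0.366, adjusted p = 0.194), or 2.32-fold lower. With 1 library left out it stayed between -1.28 and -1.15. *gdf10a*, a relative of Bmp3, had 45.6 and 24.5 CPM in WT and 32.4 and 14.6 CPM in *prdm1a-/-* libraries. It was lower in both pairs but higher in the first replicates of both genotypes, so the groups overlapped (log2 fold change -0.62, SE 0.170, adjusted p = 0.144). With genotype alone it was -0.0608 without WT replicate 1, -0.12 without *prdm1a-/-* replicate 2 and -1.27 without *prdm1a-/-* replicate 1. *gdf10b* had 7.37 and 1.73 CPM in WT against 1.66 and 0.924 CPM (log2 fold change -1.57, SE 0.501, adjusted p = 0.224). WT replicate 1 stood apart from the other 3 libraries, and without it the log2 fold change was -0.42. *gdf5*, *gdf6a*, *gdf6b* and *gdf7*, whose mouse counterparts act at joints, gave -0.19 (SE 0.638), 0.23 (SE 0.215), 0.12 (SE 0.738) and -1.40 (SE 0.655).

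*tgfb1a* was the only ligand with an unadjusted p under 0.05 that was higher in *prdm1a-/-* libraries. It had 83.5 and 185 CPM in WT and 108 and 230 CPM in *prdm1a-/-*. The replicate numbers differed by more than the genotypes, and the ratios within them were alike, 0.37 and 0.32, and the fitted value was 0.34 (SE 0.131, adjusted p = 0.322). *tgfb3* had 119 and 100.4 CPM in WT against 114 and 93.4 CPM (log2 fold change -0.08, SE 0.130, adjusted p = 0.860). *tgfb2*, which lies 47 tested genes from *prdm1a* in the GRCz12tu order, was at -0.32 (SE 0.215). For it, as for *id4*, a difference of genotype and one of linked haplotype cannot be told apart. *gdf6a* and *tgfbr2b* are on the same chromosome, 468 and 476 tested genes away. *tgfb1b* was at 0.42 (SE 0.462) and *tgfb5* at -0.37 (SE 0.481). The inhibin subunits *inhbaa*, *inhbab* and *inhbb*, which form activins, were at -0.11 (SE 0.182), -0.51 (SE 0.456) and -0.32 (SE 0.147).

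Some genes that the symbols brought in are not ligands. *bmp1a* encodes a metalloprotease that processes procollagens and cleaves chordin, and had 421 and 436 CPM in WT and 490 and 452 CPM in *prdm1a-/-*. The *prdm1a-/-* libraries were above the WT ones by a small margin (log2 fold change 0.14, SE 0.136, adjusted p = 0.755). *bmp1b* was read 12 to 50 times per library (log2 fold change 1.21, SE 0.720, adjusted p = 0.546). *tgfbi*, a matrix protein named for its induction by Tgf-beta, had 1275 and 422 CPM in WT and 1169 and 267 CPM in *prdm1a-/-* libraries. Its first replicates were several times above its second in both genotypes, and the fit gave -0.39 on the log2 scale (SE 0.161, adjusted p = 0.359). The kinase gene *bmp2k* was at 0.09 (SE 0.145), and *tgfbrap1* was at -0.14 (SE 0.279).

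The replicate number separated the libraries further than the genotype did for most of the pathway genes tested. Large replicate ratios were about as common among the pathway genes as over all genes tested. The mean log2 ratio of replicate 2 over replicate 1 was at least 1 in size for 18 of the 73 (24.7%, against 24.0% of all genes tested), and the genotype log2 fold change reached that size for 9 (12.3%, against 8.65%). *inhbaa*, an activin subunit gene, had the largest such ratio, from 11.9 to 70.8 CPM in WT and from 8.67 to 79.9 CPM in *prdm1a-/-* libraries. *fstb*, *tgfbr2a* and *chrd* were also higher in the second replicates, but with a log2 ratio of 2.76, 3.10 and 1.84 in WT and only 1.17, 1.45 and 0.59 in *prdm1a-/-* libraries. *bmp3* and *tgfbi* were lower in the second replicates of both genotypes. The summed cartilage, muscle and notochord markers given above differed between the same replicate numbers, and their part in these values was not tested.

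**Figure D4:**
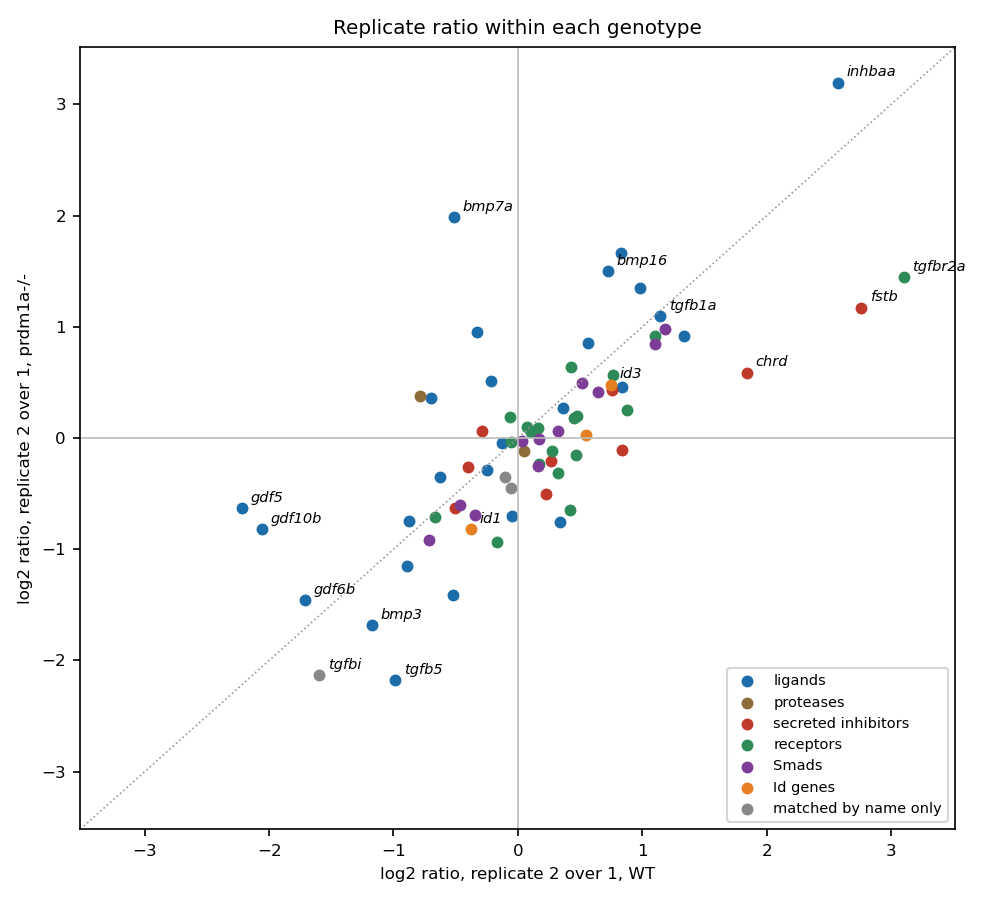
Log2 ratio of replicate 2 over replicate 1 in WT (x axis) against that in *prdm1a-/-* (y axis) for the 73 pathway genes tested, coloured by role; the dotted line marks equal ratios. *inhbaa* lies at the upper right, *tgfbi* at the lower left, and *fstb* (2.76 in WT, 1.17 in *prdm1a-/-*) and *tgfbr2a* to the right of the line.

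Other genes of the pathway, listed apart from the symbols above, gave 1 call. *fstl3*, a follistatin relative that binds activins, had 6.80 and 32.8 CPM in WT and 25.0 and 78.8 CPM in *prdm1a-/-*. Like *tgfbr2a* it was higher in the second replicates and lowest in WT replicate 1, and *prdm1a-/-* was above WT in both pairs. With the block *fstl3* rose by 1.55 on the log2 scale (SE 0.189, adjusted p = 0.00343 by edgeR), and with genotype alone its adjusted p was 0.9999. Of the 16 other modulators tested, not all of them secreted, it was the only one called by edgeR or DESeq2. Limma-voom also called *rgmb*, a Bmp co-receptor that was lower. Of the 16, 3 were lower at an unadjusted p under 0.05 (18.8%, against 6.05%). Of 16 listed target genes, among them *msx*, *tbx2* and *ccn2* genes, 0 were called by edgeR, DESeq2 or limma-voom with the block, 9 were lower and 3 higher in both pairs (56.2% and 18.8%, against 29.7% and 29.7% of all genes tested), 3 were lower and 1 was higher at an unadjusted p under 0.05 (18.8% and 6.25%, against 6.05% and 6.4%), and the median log2 fold change was -0.28. Of 12 intracellular regulators and 3 other ligands, 0 were called by these tools. At an unadjusted p under 0.05, 1 regulator was higher (8.33% of the 12, against 6.4% of all genes tested).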

How the data were processed

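Samples were 4 RNA-seq libraries, and the 6 CUT&RUN samples were not analysed here. Per the labels and the paper's methods, STAR (2.7.10b) was run against danRer11, and the authors deposited whole-number counts per gene from featureCounts, used here without change. The deposited table also holds the authors' own DESeq2 comparison and log2 values, which were not used. For the strand setting and the gene models, the sources used here give nothing. Libraries are named by genotype and replicate number as in the labels.

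Genes passing filterByExpr (minimum count 10, minimum total 15; 20007 genes) entered the quasi-likelihood test of edgeR (4.0.16, in R 4.3.3) after TMM scaling, two-sided, blocked on replicate number and with Benjamini-Hochberg adjustment over all genes tested, so that genotypes are compared within replicate number. A gene that passes the filter only through the genotype in which it is high cannot look unchanged, so counts over tested genes are not counts over all 78. SE is the log2 fold change divided by the square root of F. Log2 ratios of single pairs used CPM with 0.05 added. The labels do not say that a replicate number marks a shared batch. Libraries with the same number deviated together from their genotype's mean (r = 0.77 over all genes, and genes are no independent replicates), and the first principal component (73.4% of the variance) separated the numbers. The common dispersion was 0.0446 with the block and 0.255 without, on 1 and 2 residual degrees of freedom. With so few degrees of freedom, p-values lean on variance estimates that edgeR shares across genes. With the block they reflect how far the ratios of the 2 pairs disagree, and without it the spread between pools of the same genotype. Neither measures the spread among embryos.

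Alternatives were genotype alone, DESeq2 (1.42.0), limma-voom (limma 3.58.1), RLE size factors, no filter, at least 10 counts in every library, and each library left out with genotype alone, 11 fits in all. The pathway genes, their roles, the marker lists and the tests were chosen with earlier results of these data known. Genes described in full were those with an adjusted p under 0.05, the 4 with the smallest p and the 2 with the highest mean CPM in each role, and any gene spanning over 16-fold with at least 50 counts in a library; this gave 27, and others are named where a sentence needs them. CPM is not scaled by gene length, so levels are not compared between genes. Of the 80 identifiers, the table of Ensembl names held 79.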

Additional observations from a re-analysis of the deposited data

How the results depend on the processing

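Against 0 pathway genes called with the replicate block, DESeq2 with the block called 1, limma-voom 2, the fit without a filter 3 (*id1*, *tgfbr2a* and *nog3*), the fit with at least 10 counts in every library 1 (*nog3*), RLE size factors 0 and genotype alone 0. Over all genes tested, edgeR with the block called 203, DESeq2 243, limma-voom 434 and genotype alone 0. Genes at an unadjusted p under 0.05 numbered 2 lower and 0 higher with genotype alone, against 11 and 3 with the block. With 1 library left out and genotype alone, they were 0 to 1 lower and 0 to 2 higher, and the median log2 fold change ran from -0.23 without WT replicate 1 to -0.0124 without WT replicate 2. In those fits the genotypes hold different replicate numbers, so a gene's difference between replicate numbers enters by construction. Of the 27 genes described in full, 17 kept their direction in all 4 of these fits. In them the log2 fold change ran from -0.32 to 1.01 for *tgfb1a*, -0.24 to 0.0519 for *tgfb3*, -1.67 to 0.77 for *tgfbi*, -0.84 to 1.92 for *fstb*, -0.78 to 0.15 for *smad6a*, -0.82 to 0.37 for *acvr1ba*, -0.69 to 0.45 for *smad3a*, -0.0853 to 0.26 for *bmp2k*, -0.37 to 0.0843 for *tgfbrap1* and -0.0202 to 3.16 for *tgfbr2a*. With genotype alone and all libraries, *fstb* turned to -0.0446, and the direction of the other 26 genes described in full did not turn. Depth limits *id4*, *gdf5*, *gdf6b*, *gdf7*, *bmp10*, *bmp7a*, *grem1a*, *grem2a* and *bmp1b*, which had at most 81 reads in any library.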
